A study of Homo sapiens with 27 samples.

Results

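The genes described here encode claudins and cytoplasmic or membrane partners of the tight junction, and they were taken as a list of 9 by gene symbol. The claudins are CLDN3, CLDN4, CLDN7, CLDN12 and CLDN15, the partners are OCLN, TJP1, TJP3 and CGN, and all probes that the platform annotation gives to a listed gene were collected. The annotation gave 10 probes to 8 of the 9 genes. TJP3 had no probe in that annotation and was not analysed here. Both OCLN probes were below detection on all 27 arrays, so 7 of the 9 genes (5 claudins, TJP1 and CGN) entered the fit over 13510 genes.

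The cells were LS174T, a human colorectal carcinoma line, in its pN1-LS174T derivatives. In the SNAI1 and LEF1 lines doxycycline switches on a transgene. The SNAI1 line expressed mouse Snail1 with an HA tag and the LEF1 line mouse Lef1 with an HA tag. The label for overexpression gave no transgene for the control line, while its array descriptions begin with Luc. Whether that line carries another insert is not settled by these labels. Doxycycline was used at 0.1 µg/ml and renewed at 48 h in long treatments, and total RNA was labelled for Illumina bead arrays at 0, 3, 6, 24, 48, 72 and 96 h (0, 6, 24 and 72 h in the LEF1 line). The arrays numbered 11 for the SNAI1 line, 9 for the control line and 7 for the LEF1 line. Each of the 18 combinations of line and time had 1 or 2 arrays, with 9 of either kind, and the labels do not say whether replicates were separate cultures, so p-values measure the spread between arrays, which may be technical. Each line stands for a single engineered derivative, so line and transgene cannot be told apart beyond the 0 h comparison.

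Tight junctions seal the space between neighbouring epithelial cells near their apical side. Claudins are the membrane strands that set which ions and solutes may pass, occludin is a further membrane protein of the strands, and ZO-1 (TJP1), ZO-3 (TJP3) and cingulin (CGN) form the plaque beneath the membrane that ties the strands to actin and myosin. In colonic epithelium claudin-3, claudin-4 and claudin-7 are widely expressed sealing claudins, and claudin-15 forms cation channels. Snail1 is a zinc finger repressor of epithelial genes, known for binding E-boxes with the letters CAGGTG, and Lef1 is a transcription factor that acts with beta-catenin in Wnt signalling. The question was which of these genes fell when Snail1 was induced, in what order and how far, and whether Lef1 did the same.

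Promoter windows are shown for the 3 genes that fell together and for TJP1, whose change did not pass the test, so that their E-boxes can be set beside the values. The windows are from RefSeq on GRCh38.p14, run from 250 bases before to 50 bases after a gene start on the gene's own strand, 5′ to 3′, and capitals mark CAGGTG or its reverse complement CACCTG.
CLDN3, chr7:73770221-73770520, minus strand: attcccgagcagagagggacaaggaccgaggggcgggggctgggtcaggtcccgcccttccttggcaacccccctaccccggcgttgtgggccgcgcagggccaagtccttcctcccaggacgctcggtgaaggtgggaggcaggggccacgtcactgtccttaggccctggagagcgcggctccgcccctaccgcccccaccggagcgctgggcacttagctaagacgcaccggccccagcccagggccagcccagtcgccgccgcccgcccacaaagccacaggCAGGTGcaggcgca
CLDN7, the second of its windows, chr17:7262429-7262728, minus strand: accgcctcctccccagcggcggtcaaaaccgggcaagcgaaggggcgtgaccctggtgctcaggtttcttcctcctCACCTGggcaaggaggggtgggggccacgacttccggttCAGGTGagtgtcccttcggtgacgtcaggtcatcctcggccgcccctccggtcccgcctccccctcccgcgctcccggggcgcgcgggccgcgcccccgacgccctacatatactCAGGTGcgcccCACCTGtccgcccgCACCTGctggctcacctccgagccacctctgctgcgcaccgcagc
CGN, chr1:151511137-151511436, plus strand: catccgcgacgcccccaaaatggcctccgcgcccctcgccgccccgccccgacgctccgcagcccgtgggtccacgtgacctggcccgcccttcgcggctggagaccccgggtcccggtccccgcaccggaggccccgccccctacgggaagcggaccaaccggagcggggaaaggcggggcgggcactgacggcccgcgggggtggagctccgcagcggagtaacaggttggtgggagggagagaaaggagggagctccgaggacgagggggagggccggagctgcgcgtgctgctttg
TJP1, the first of its windows, chr15:29969000-29969299, minus strand: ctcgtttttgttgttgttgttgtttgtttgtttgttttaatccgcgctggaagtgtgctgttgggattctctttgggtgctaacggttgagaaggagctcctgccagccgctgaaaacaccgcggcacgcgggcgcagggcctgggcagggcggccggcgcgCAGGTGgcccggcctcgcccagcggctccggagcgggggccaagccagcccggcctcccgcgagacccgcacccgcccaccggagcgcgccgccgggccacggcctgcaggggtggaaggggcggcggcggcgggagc
The CLDN7 window held 5 such hexamers, the CLDN3 window 1 and the TJP1 window 1. The other CLDN7 window and the other 3 TJP1 windows held none. The CGN window held none either, and its single match to CANNTG was CACGTG. All 9 listed genes had a window, 15 in total. The hexamer stood on either strand in 6 of the 15 windows, from 5 of the 9 genes. Of all 35116 promoter windows of this length, 20.59% held it and 68.68% held CANNTG, which includes the former. A match is a run of letters in the window and was not tested for binding here.

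The arrays fell into 2 sets by the form of their detection p. Set 1 held the 11 arrays of the SNAI1 line with 7 control arrays, which had 18241 to 19683 detected probes each. Set 2 held the 7 arrays of the LEF1 line with control 0 h replicate 2 and control 6 h replicate 1, which had 14766 to 15918. Line and set therefore overlap, and values within a set are given where they bear on a result. The epithelial label was borne out by 8 of 10 colorectal epithelial markers detected on all 27 arrays, while VIL1 was detected on 24 and KRT20 on 7. PECAM1 and CDH5 of endothelium and PDGFRB of fibroblasts were detected on none. Of 6 fibroblast markers FAP was detected on 23 arrays, at 7.50 in the control line at 0 h and 4.88 late in the SNAI1 line, DCN on 5, LUM on 4, COL1A2 on 2 and COL1A1 on 1. Of 5 endothelial markers VWF was detected on 2 arrays, KDR on 1 and CLDN5 on none. Of the 4 leukocyte markers with a probe CD68 was detected on 27, LYZ on 15 and PTPRC and CD3E on 1 each. The part of these genes in the results was not tested. The human LEF1 gene rose late under Snail1 by 4.53 (log2, adjusted p = 4.08e-05 in limma). Its probe also rose late in the LEF1 line, by 2.57 (adjusted p = 0.0369 in limma), and whether it reads mouse Lef1 was not tested. The mouse transgenes themselves were not followed.

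Under Snail1, 3 of the 7 measured genes fell, and none rose. CLDN3 fell 39.5-fold, CLDN7 8.76-fold and CGN 5.67-fold over 24 to 96 h, each relative to the control line, with CLDN3 and CGN each below detection on 3 of the 6 late arrays. CLDN4, CLDN12, CLDN15 and TJP1 did not pass the test. The genes that fell thus comprised 2 of the 5 claudins and 1 of the 2 measured plaque genes. By the same rule 4.8% of all 13510 genes were called lower and 3.89% higher. For CLDN3, CLDN7, CLDN12 and CGN every late array of the SNAI1 line lay below every control array, as was so for 6.83% of all genes. The median change of the 7 genes was -0.84 on the log2 scale and that of all genes was 0.02. These late changes are the average of 24, 48, 72 and 96 h minus 0 h in the SNAI1 line, minus the same in the control line, with a call at a Benjamini-Hochberg adjusted p under 0.05 over all genes in limma. In RNA from whole cultures, fewer cells that express a gene and less RNA per cell cannot be told apart.

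**Figure D1:**
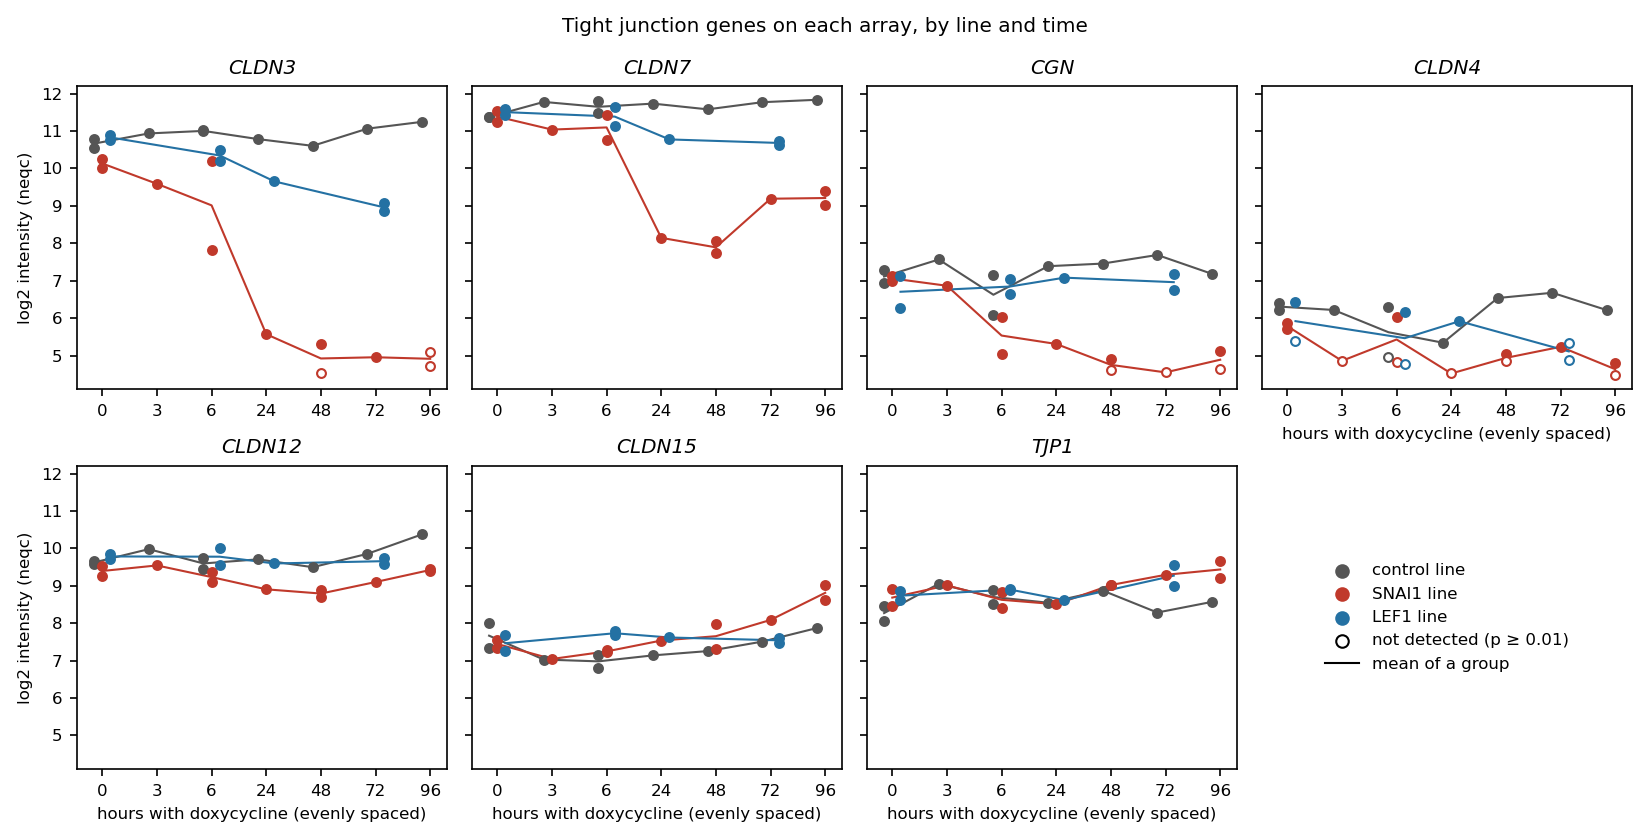
Log2 intensity after neqc (vertical axis) of the 7 measured genes on each of the 27 arrays, by hours with doxycycline (horizontal axis, times evenly spaced and not to scale), in the control, SNAI1 and LEF1 lines. Points are arrays, open points are below detection (p of 0.01 or more) and lines join group means. CLDN3, CLDN7 and CGN of the SNAI1 line lie below the control line on all 6 late arrays, and TJP1 overlaps it.

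CLDN3, which encodes the sealing claudin claudin-3, showed the largest change of the 7. At 0 h the SNAI1 line read 10.26 and 10.01 on the log2 scale, and at 3 h it read 9.59. The 2 arrays at 6 h read 7.83 and 10.20, the 24 h array read 5.57, the 48 h arrays 5.30 and 4.54, the 72 h array 4.95 and the 96 h arrays 5.10 and 4.72. In the control line the 9 arrays ran from 10.55 to 11.25 with a median of 10.94. All 6 late arrays of the SNAI1 line thus lay far below every control array, and 3 of the 6 (48 h replicate 2 and both at 96 h) were below detection. The late change was -5.31 (SE 0.613, 95% interval -6.62 to -3.99, adjusted p = 7.85e-05 in limma), first by size among all genes that read lower. Neither 96 h array detected the probe, and their own readings, which were not below the lowest detected signal of each array, were taken. The resulting 37.3-fold loss at that time within the line is a bound after neqc and not a measured size. It depends on the background step. Without background correction the late change was -3.63, and within set 1 alone it was -5.42, both past the threshold.

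CLDN7, which encodes claudin-7 of the lateral membrane and the junction, fell and stayed well detected. The SNAI1 line read 11.23 and 11.54 at 0 h, 11.04 at 3 h, and 10.77 and 11.43 at 6 h. It then read 8.15 at 24 h, 7.73 and 8.05 at 48 h, 9.19 at 72 h, and 9.40 and 9.02 at 96 h. The control line ran from 11.37 to 11.84 with a median of 11.73. No late array of the SNAI1 line reached the control range, and the lowest readings were at 48 h. The late change was -3.13 (SE 0.312, 95% interval -3.80 to -2.46, adjusted p = 2.13e-05 in limma). The probe was detected on all 27 arrays, and its level could have fallen by 6.80 before reaching the floor, so its depth was not set by detection. The difference in depth between CLDN7 and CLDN3 was not tested.

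CGN, which encodes cingulin, the plaque protein that links ZO proteins to myosin, was the scaffold gene that fell. In the SNAI1 line it read 7.12 and 7.0 at 0 h and 6.86 at 3 h, then 5.03 and 6.04 at 6 h. It read 5.31 at 24 h, 4.60 and 4.90 at 48 h, 4.55 at 72 h, and 4.65 and 5.12 at 96 h. The control line ran from 6.09 to 7.69 with a median of 7.29. The 6 late arrays lay below all 9 control arrays, and 3 of them (48 h replicate 1, 72 h and 96 h replicate 1) were below detection. The late change was -2.50 (SE 0.475, 95% interval -3.52 to -1.48, adjusted p = 0.00375 in limma). From its 0 h level CGN could fall by only 2.47 before reaching the floor, so its depth is bounded by detection in a way that CLDN7's is not. At 72 h, where the single array did not detect it, the loss within the line was at least 5.53-fold on the neqc scale. Without background correction the late change was -1.19, still past the threshold.

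TJP1 encodes ZO-1, the plaque protein on which claudin strands assemble, and its change did not pass the test. Its main probe read 8.45 and 8.92 at 0 h in the SNAI1 line and between 8.50 and 9.67 on the 6 late arrays. The control line ran from 8.07 to 9.05, so the ranges overlapped, and the 3 late readings at 72 and 96 h (9.29, 9.67 and 9.20) lay above it. The late change was 0.08 (SE 0.319, 95% interval -0.60 to 0.77, adjusted p = 0.923 in limma). The interval reaches down to -0.60, so a loss as deep as that of CGN lies outside it. Its second probe changed by 0.25 (adjusted p = 0.843 over all probes in limma), and both probes were detected on all 27 arrays. From its 0 h level TJP1 could have fallen by 4.10 before reaching the floor.

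CLDN12 encodes a claudin that lacks the usual binding motif for ZO proteins. It read 9.25 and 9.54 at 0 h and from 8.70 to 9.44 on the late SNAI1 line arrays, against 9.45 to 10.37 in the control line. The late arrays all lay just below the control arrays, but so did 1 array at 0 h. The late change of -0.57 did not pass (SE 0.250, adjusted p = 0.202 in limma).

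CLDN4, which encodes a sealing claudin and lies next to CLDN3 on chromosome 7 with no RefSeq gene between them, was near the floor from the start. The SNAI1 line read 5.86 and 5.71 at 0 h and from 4.47 to 5.23 late, with 3 of the 6 late arrays below detection. The control line read 4.96 to 6.68, overlapping the late range. Its late change of -0.84 did not pass (SE 0.616, 95% interval -2.16 to 0.48, adjusted p = 0.492 in limma), and no more than 1.20 of loss was measurable. A fall like that of CLDN3 was therefore not detectable at this signal.

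CLDN15, which encodes a claudin of cation channels, read in the other direction. In the SNAI1 line it read 7.33 and 7.55 at 0 h, and 7.53 at 24 h, 7.31 and 7.99 at 48 h, 8.09 at 72 h, and 8.61 and 9.01 at 96 h. The control line ran from 6.81 to 8.0, so only the 72 h and 96 h arrays lay above it. The late change of 0.80 did not pass (SE 0.332, adjusted p = 0.179 in limma), nor did the 96 h change of 1.16 (adjusted p = 0.124). Against its own 0 h the 96 h change was 1.37 (adjusted p = 0.00184 in limma), where 3967 of all 13510 genes were called. The control 0 h pair, which spans the array sets, read 7.33 and 8.0. Without replicate 1 of that pair, which is in the same set as the SNAI1 line, the late change was 1.14. Within set 1 alone, where replicate 1 is the only control 0 h array, it was 0.47. The size of the change thus depended on which control 0 h array was the reference.

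OCLN, which encodes occludin, could not be followed. Its 2 probes averaged 4.38 and 4.36 over the 27 arrays and were detected on none. In a fit with no filter on detection, over 20035 genes, its late change in the SNAI1 line was -0.04 (SE 0.233, adjusted p = 0.963 in limma), a value between levels that are all below detection and so no measure of occludin.

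**Figure D2:**
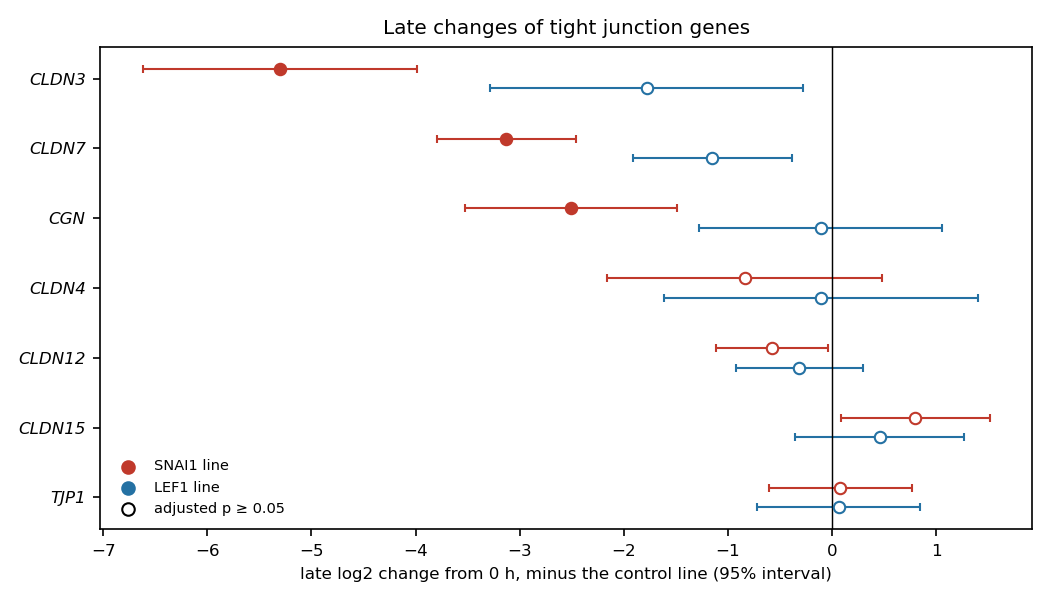
Late log2 change of the 7 measured genes relative to the control line (horizontal axis) with 95% intervals, for the SNAI1 line (24 to 96 h) and the LEF1 line (24 and 72 h). Filled points have a limma adjusted p under 0.05. CLDN3, CLDN7 and CGN of the SNAI1 line are filled at -5.31, -3.13 and -2.50, and no point of the LEF1 line is filled.

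At 24 h CLDN7 had changed by -3.60 relative to the control line (SE 0.450, adjusted p = 0.00903 in limma) and was the only one of the 7 genes called, with 0.126% of all genes called lower. Within set 1 alone it was -3.60 and not called (adjusted p = 0.0822 in limma). CLDN3 read -4.68 at 24 h, a larger change with a larger error (SE 0.886), and missed the threshold at an adjusted p of 0.0545. CGN read -2.03 (adjusted p = 0.423 in limma). At 48, 72 and 96 h CLDN3, CLDN7 and CGN were called lower each time, where 1.62%, 3.74% and 5.14% of all genes were. CGN was near the threshold at 48 and 96 h (adjusted p = 0.0348 and 0.0365 in limma), and without background correction it missed it at both (adjusted p = 0.0598 and 0.0631). Within set 1 alone CLDN3 (-5.27, adjusted p = 0.0701) and CGN (-2.48, adjusted p = 0.0757) did not pass at 48 h in limma, and CLDN7 did.

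Whether CLDN3 or CLDN7 came first depends on the rule. The error of CLDN3 came largely from the 6 h pair of the SNAI1 line, which differed by 2.37 (median difference over the 9 replicate pairs 0.26), and when either array of that pair was left out CLDN3 at 24 h had an adjusted p of 0.000362. By the first time from which the mean change stayed at or below -1, CLDN3 (-1.46 at 6 h) and CGN (-1.04 at 6 h) preceded CLDN7 (-0.56 at 6 h, -3.60 at 24 h). The early CLDN3 value rests on replicate 1, which read 7.83, while replicate 2 read 10.20 and lay between the 0 h arrays. For CGN both 6 h arrays (5.03 and 6.04) read below both at 0 h, and the control line split at 6.09 and 7.15 across the array sets. Averaged over 3 and 6 h, 0 of the 7 genes passed, as did 0% of all genes in limma (337 of 13510 had an unadjusted p under 0.05). An order among the 3 genes within the first 6 h was therefore not resolved by these arrays.

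CLDN3 read -5.15, -5.58 and -5.80 relative to the control line at 48, 72 and 96 h, and -5.21, -5.18 and -5.22 against the line's own 0 h, around its floor. CLDN7 was lowest at 24 and 48 h (-3.60 and -3.70) and read -2.59 and -2.64 at 72 and 96 h. CGN read -2.66, -3.09 and -2.24 at 48, 72 and 96 h, around its floor. The mean of 72 and 96 h minus that of 24 and 48 h was 1.04 for CLDN7 relative to the control line (SE 0.344, adjusted p = 0.114 in limma), and 0 of the 7 genes passed where 4.31% of all genes did. Against the line's own 24 and 48 h, without the control line, CLDN7 was 1.18 higher (adjusted p = 0.00216) and CLDN15 0.86 higher (adjusted p = 0.0225, both in limma), where 2534 of all 13510 genes were called. That second setting was added after the data were seen. EPCAM, whose product binds claudin-7 and stabilises it, moved differently, at 13.28 and 13.31 at 0 h, 12.42 at 24 h, 11.62 and 11.85 at 48 h, 11.09 at 72 h, and 10.82 and 11.05 at 96 h. Its change at 24 h was -0.52 (adjusted p = 0.961 in limma) and at 96 h -1.97 (adjusted p = 0.00229). The difference in course between the genes was not tested.

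**Figure D3:**
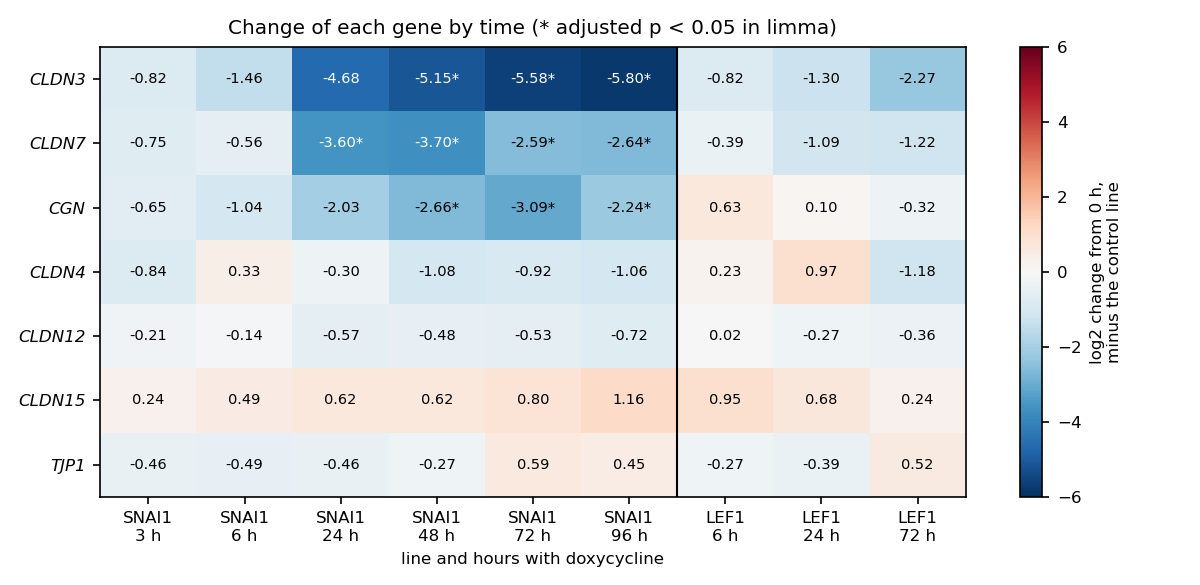
Log2 change from 0 h minus that of the control line, for the 7 genes (rows) at each time of the SNAI1 line and the LEF1 line (columns), coloured from -6 to 6. Stars mark a limma adjusted p under 0.05. CLDN7 carries a star from 24 h, CLDN3 and CGN from 48 h, and no cell of the LEF1 line carries one.

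Under Lef1, CLDN3 and CLDN7 read lower without passing the test, and the other 5 genes read within 0.5 of no change on the log2 scale when 24 and 72 h were averaged. At single times they ranged wider, with CLDN4, near detection, at 0.97 at 24 h and -1.18 at 72 h, CLDN15 at 0.68 at 24 h and TJP1 at 0.52 at 72 h. None of the 7 was called over 24 and 72 h, where 1.15% of all genes were called in either direction. CLDN3 read 10.76 and 10.90 at 0 h, 10.21 and 10.48 at 6 h, 9.65 at 24 h, and 8.86 and 9.07 at 72 h. Those 3 late arrays lay below all others of the line and below all 9 of the control line, of which 7 are of set 1. How many of all genes separate in this way was not counted. The late change was -1.78 (SE 0.701, 95% interval -3.29 to -0.28, adjusted p = 0.314 in limma). Set 2 alone, with the line's 0 h arrays as the reference, gave -1.52 and a call (adjusted p = 0.0191 in limma). In the fit of all arrays the same -1.52 against the line's own 0 h did not pass (adjusted p = 0.0901 in limma). When either 6 h array of the SNAI1 line was left out of that fit, the change relative to the control line was called (adjusted p = 0.0259).

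CLDN7 read 11.42 and 11.59 at 0 h in the LEF1 line, 11.14 and 11.64 at 6 h, 10.78 at 24 h, and 10.62 and 10.74 at 72 h. The late arrays again lay below all others of the line, a separation likewise not counted over all genes. The change was -1.15 (SE 0.356, 95% interval -1.92 to -0.39, adjusted p = 0.174 in limma) and -0.78 within set 2 (adjusted p = 0.162). CGN read 6.27 and 7.14 at 0 h and 7.08, 6.74 and 7.18 late, so the ranges overlapped. Its change was -0.11 (SE 0.542, 95% interval -1.27 to 1.05). CLDN12 ran from 9.56 to 10.00 over the 7 arrays of the line, CLDN15 from 7.25 to 7.78 and TJP1 from 8.61 to 9.55. CLDN4 was detected on 3 of the 7 arrays and on neither at 72 h. The late changes were -0.31 for CLDN12, 0.46 for CLDN15, 0.06 for TJP1 and -0.11 for CLDN4, none past the threshold. At 6 h 0 of the 7 genes passed, as did 0% of all genes in limma (354 had an unadjusted p under 0.05).

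At matched times the losses were deeper with Snail1 than with Lef1. Over 24 and 72 h the SNAI1 line minus the LEF1 line, each against its own 0 h, was -3.35 for CLDN3 (SE 0.701, adjusted p = 0.0175 in limma), -1.94 for CLDN7 (SE 0.356, adjusted p = 0.00815) and -2.45 for CGN (SE 0.542, adjusted p = 0.0251). These 3 genes were called lower and none higher, where 1.72% of all genes were called lower and 1.01% higher. Each change is taken within 1 array set, set 1 for the SNAI1 line and set 2 for the LEF1 line, and the SNAI1 line has 1 array at each of these times. Without the 72 h array of the SNAI1 line CLDN3 and CGN no longer passed (adjusted p = 0.164 and 0.32 in limma), and without either 24 h array CLDN7 did not (-1.37, adjusted p = 0.0792). Without background correction CLDN3 was -1.92 and did not pass (adjusted p = 0.0998 in limma).

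No difference between the lines in these genes was called before induction. That test set 2 arrays against 2, and the control 0 h pair spans the array sets, so it cannot show equal levels. At 0 h 0 of the 7 genes passed in the SNAI1 line against the control line, where 0.0074% of all genes did, or in the LEF1 line, where 0.0222% did. The CLDN3 difference between the SNAI1 line and the control line at 0 h was -0.53 (95% interval -1.63 to 0.57), and both its arrays read below both control arrays. In the control line 0 of the 7 genes changed late against its 0 h, as did 0% of all genes (531 had an unadjusted p under 0.05 in limma), and its CLDN3 change was 0.26 (SE 0.443).

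Among the other tight junction genes a minority fell under Snail1. Of 48 listed, 42 had a probe and 33 were tested, and 5 fell late in the SNAI1 line while none rose, where 4.8% of all genes were called lower and 3.89% higher. The median change of the 33 was 0.09 against 0.02 for all genes. By class, 2 of 9 other claudins (CLDN1, CLDN2), 2 of 10 other membrane proteins (MARVELD3, ILDR1) and 1 of 14 other plaque proteins (PALS1) fell. ILDR1 was named after its value was seen, to complete the 5.

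CLDN1, which encodes a sealing claudin, read 7.54 and 7.43 at 0 h in the SNAI1 line and was below detection on all 6 late arrays. Its loss within the line was at least 7.22-fold on the neqc scale (fitted change -3.16, adjusted p = 0.0238 in limma). At 6 h it was below detection on replicate 1 and read 7.34 on replicate 2, the same split as for CLDN3. Control arrays read from 8.23 to 9.86, so the line was already low at 0 h.

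CLDN2, which encodes the channel-forming claudin of leaky epithelia, read 9.56 and 9.12 at 0 h in the SNAI1 line. It then read 6.26 at 24 h, 5.24 and 6.01 at 48 h, 4.73 at 72 h, and 4.68 and 4.95 at 96 h. Its fitted change of -4.36 (adjusted p = 0.0069 in limma) carries an SE of 0.903, and the control pair at 0 h, which spans the array sets, read 8.92 and 6.18.

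PALS1, which encodes a polarity scaffold of the Crumbs complex, read 8.07 and 8.29 at 0 h and between 6.55 and 6.94 late (change -1.84, adjusted p = 0.00188 in limma). MARVELD3, which encodes a relative of occludin, fell later, from 8.87 and 8.71 at 0 h to 8.03 at 24 h and 6.18 and 5.90 at 96 h (late change -1.69, adjusted p = 0.00118 in limma). ILDR1, which encodes a protein of tricellular junctions, changed by -2.35 (adjusted p = 0.033 in limma). In the LEF1 line late, 1 of the 33 was called higher and none lower, where 1.15% of all genes were called in either direction. This was AMOT, which encodes the junction-associated protein angiomotin, at 7.52 and 7.24 at 0 h, 9.13 at 24 h, and 10.43 and 10.25 at 72 h (change 2.04, adjusted p = 0.00394 in limma). Against the 0 h mean of the LEF1 line, PALS1, CLDN1 and CLDN2 read lower late, and MARVELD3 and ILDR1 higher. None of them was called relative to the control line. PALS1 read 8.30 and 8.22 at 0 h, 7.75 at 24 h, and 7.38 and 7.25 at 72 h. CLDN1 read 8.49 and 7.59 at 0 h, 7.09 at 24 h, and 6.62 and 6.35 at 72 h. The change from 0 h in the SNAI1 line minus that in the LEF1 line was called lower for MARVELD3 (-1.94), AMOT (-1.79) and ILDR1 (-3.42). Their adjusted p were 0.00344, 0.00521 and 0.0195 in limma, where 1.72% of all genes were called lower. AMOT did not fall in the SNAI1 line, at 7.20 and 7.01 at 0 h, 7.52 at 24 h and 7.81 at 72 h.

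**Figure D4:**
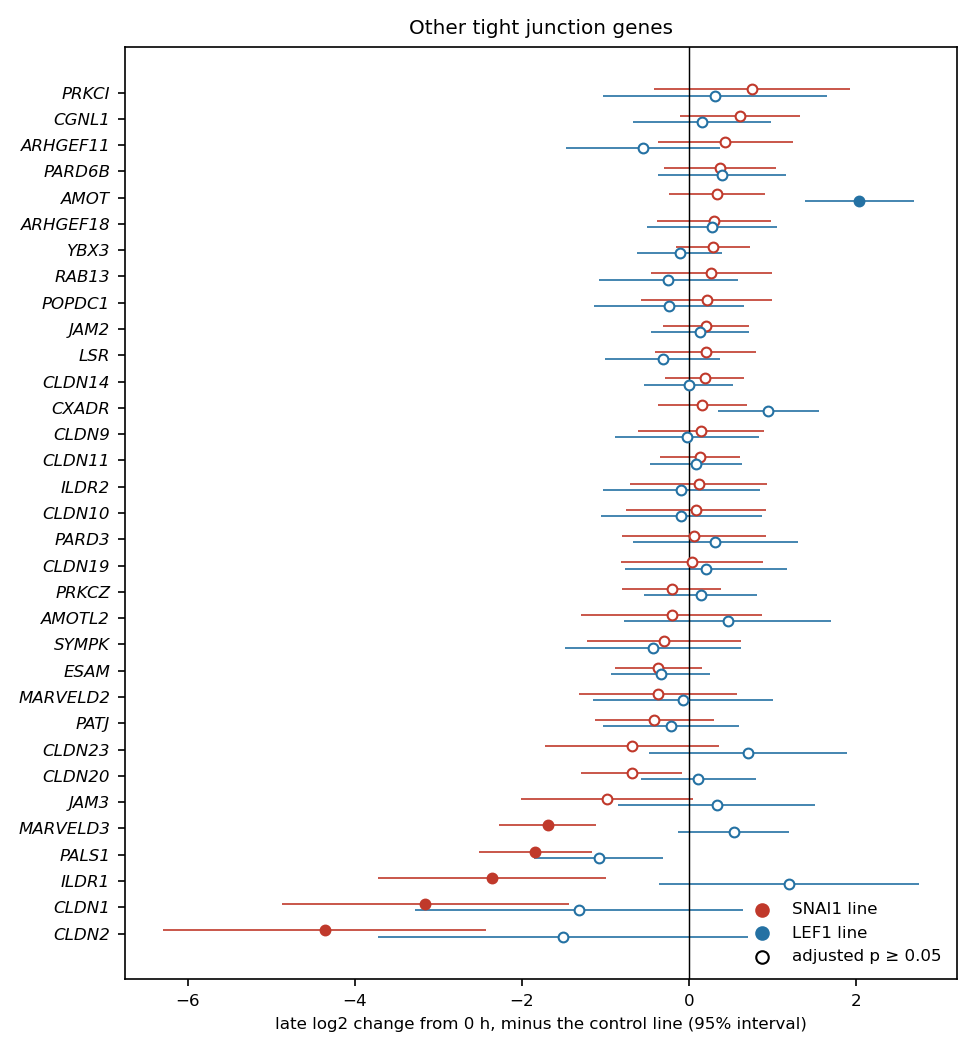
Late log2 change relative to the control line (horizontal axis) with 95% intervals, for the 33 other tight junction genes tested, in the SNAI1 line and the LEF1 line. Filled points have a limma adjusted p under 0.05, namely CLDN1, CLDN2, ILDR1, PALS1 and MARVELD3 on the lower side in the SNAI1 line and AMOT on the higher side in the LEF1 line.

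Across the 27 arrays, which share lines and times and are not independent, the log2 values of CLDN3 and CLDN7 correlated at 0.952, those of CLDN3 and CGN at 0.889 and those of CLDN7 and CGN at 0.839. CLDN3 and TJP1 correlated at -0.55. The genes outside the list with the courses most like that of CLDN3 were TMEM125 (0.981), ATP10B (0.980) and COBL (0.978). Those most like CLDN7 were ICA1 (0.967), CFD (0.954) and HES4 (0.953), and those most like CGN were TMEM45B (0.947), MBP (0.934) and PLPPR1 (0.933). Each is a Pearson correlation given as a description.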

How the data were processed

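RNA from 27 arrays of LS174T derivatives was measured on Illumina bead arrays. The authors deposited probe intensities on the log2 scale, not normalized between arrays (scale read from the values), and a log2 matrix that was quantile normalized over the arrays. Beside each deposited intensity stands its detection p-value, per the file headers. Scan summarisation, and whether background was removed, were not given in the sources used here, so a background step may already be in the values.

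The table holds 47323 probes, and 32 of them were left out because a value was missing or infinite. The intensities then went through neqc of limma 3.58.1 in R 4.3.3, which fits normexp to negative controls derived from detection p-values, adds an offset (here 16) and equalises quantiles. Probes detected (threshold 0.01) on 2 or more arrays stayed in (25629 did). Genes with several such probes are represented by the brightest on average. The platform annotation gave 30113 probes 1 gene, 8 several and 17202 none, and 0 symbols needed updating. A limma model with 1 mean for each line and time was fitted over all genes (9 residual and 4.92 prior degrees of freedom), so a time with 1 array takes its spread from those with 2, and p-values were adjusted for each of 13 contrasts. Array sets were read from the form of the detection p, and the number of arrays limits the precision.

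One LEF1 line array is titled 6 h but has 0 h in its time field, and it was taken as 6 h. Deviations of same-numbered arrays correlated from -0.43 to 0.52 over 36 pairs of groups, and 8 of these exceeded 0.1, so replicate numbers did not pair the samples over all lines. Within the LEF1 line the 3 correlations were 0.523, 0.476 and 0.471, and a replicate block in that line alone was run as an alternative. Fold bounds within a line use, per array, the lowest signal among detected probes or the probe's own if higher. The fit was tested on simulated data with 100 genes shifted by 2 (log2) and 100 by 1: late in the SNAI1 line 73 and 18 of them were called, and late in the LEF1 line 62 and 5. In each case 4 unshifted genes were called. The simulated noise was independent and normal, with no array sets and no floor, so these rates may not hold for the real arrays. The members and gene lists were chosen with earlier results of these data known. All members are described, and of the other tight junction genes up to 4 per contrast are named by lowest adjusted p.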

Additional observations from a re-analysis of the deposited data

Results flagged for a closer look

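The response of 3 genes differed between the lines by a test of the difference itself. Over 24 and 72 h, the log2 change in the SNAI1 line minus that in the LEF1 line was -3.35 for CLDN3, -1.94 for CLDN7 and -2.45 for CGN, each past the 5% threshold in limma. CLDN3 lost the call in 5 of the 27 fits that left out 1 array, CLDN7 in 3 and CGN in 5.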

How the results depend on the processing

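The late falls of CLDN3, CLDN7 and CGN under Snail1 kept their direction and their call under every alternative run, with CLDN3 between -5.84 and -3.63, CLDN7 between -3.19 and -2.78 and CGN between -2.62 and -1.18 outside the fits that left out an array. Fits without 1 array each called 3 to 4 of the 7 genes late. With the control line's matched times as the only reference the late count was 7, of which CLDN15 (0.58) and TJP1 (0.50) were higher and the others lower, but 3932 of all genes were then called in place of 1174. At 24 h the count of 1 became 2 with a trended robust variance, with the 0 h arrays of the line as reference, and with matched control times (CLDN3 added each time). It became 0 within array set 1, and ran from 1 to 2 with 1 array left out (2 without either 6 h array of the SNAI1 line). At 48 h the count of 3 became 1 within set 1, and at 96 h it became 5 with the line's 0 h as reference (CLDN15 and TJP1 added, both higher). For 72 and 96 h against 24 and 48 h, 0 became 2 without the control line. For the LEF1 line late, 0 became 1 within set 2 and 2 with matched control times, and ran from 0 to 1 with 1 array left out. The control arrays at 24 and 72 h are of set 1 and the LEF1 line is of set 2. With matched control times, line and set therefore cannot be told apart for that line. The count of 3 for the SNAI1 minus the LEF1 line ran from 0 to 3, with 0 without SNAI1 line 0 h replicate 2. With the replicate block the late SNAI1 count stayed at 3 (CGN -2.62), and the block changed no count of these genes. A replicate block in the LEF1 line alone, added after the data were seen, gave CLDN3 -1.73 (adjusted p = 0.303 in limma) and CLDN7 -1.09 (adjusted p = 0.151) for that line late and changed no call. Over single genes, 3451 values under alternatives held 38 lost calls, 21 gained calls and 0 reversals of a called value, and 78 changed sign without a call.

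With each line's 0 h as reference, counts over all genes were 2712 late, 194, 1448, 2385 and 3967 at 24, 48, 72 and 96 h (1174, 24, 399, 976 and 1296 in the fit reported), and 696 for the LEF1 line late (156). With matched control times they were 210, 930, 1777 and 2701 at those hours, 1906 for the LEF1 line late, and 11 early and 5 at 6 h in the LEF1 line, both 0 otherwise. The 1906 come from a comparison of array sets as well as of lines. Within set 1 they were 8, 1614 and 2341 at 24, 72 and 96 h, and 258 within set 2 for the LEF1 line late. For 72 and 96 h against 24 and 48 h, 582 became 911 with the set as a block, 1725 within set 1 and 2534 without the control line. Leaving out 1 array gave 646 to 1917 late, 24 to 357 for the LEF1 line late and 40 to 638 for the difference of the lines, and at 0 h 0 to 758 for the SNAI1 line, where the fit reported had 1. The causes of these changes were not tested. Low signal limits CGN and CLDN4, whose levels at 0 h lie 2.47 and 1.20 above the lowest detected signal. The depth of the CLDN3 loss is limited too. Its 0 h level lies 5.55 above that signal, and it was detected on 3 of the 6 late SNAI1 line arrays.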

Other observations

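ILDR1, of tricellular junctions, read 7.58 and 7.48 at 0 h in the SNAI1 line, 5.95 at 3 h, and 5.08 and 7.65 at 6 h. It was below detection on both 48 h arrays and read 5.33 at 72 h and 5.70 and 5.74 at 96 h. In the LEF1 line it read 8.13 and 8.65 at 0 h, 9.40 at 24 h, and 9.89 and 9.82 at 72 h, a late change of 1.20 that did not pass (adjusted p = 0.577 in limma). CDH1, which encodes E-cadherin of the adherens junction, changed later than CLDN7 in the SNAI1 line by its values, at -0.63 at 24 h and -2.06 at 96 h, and the difference between the genes was not tested.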
